A study of Mus musculus with 3 samples.

Results

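Zymogenic (chief) cells are the digestive-enzyme cells at the base of the mouse gastric unit, and 1 array of their RNA was set against 1 array of acid-secreting parietal cells and 1 array of mucus-secreting pit cells from the same organ. A gene was taken as higher in zymogenic cells when its zymogenic value was at least 4 times the larger of the other values, and as lower when 4 times its zymogenic value was at most the smaller of them. Of 18194 named genes on the array, 4138 were above the background floor of 23.3 intensity units on at least 1 of the 3 arrays. Of these, 107 were at least 4-fold higher in zymogenic cells (2.59%) and 163 were at least 4-fold lower (3.94%). Which direction held more genes rested on the scaling of the arrays: the counts were 151 higher and 107 lower after quantile normalization, 128 and 96 at 1 common median, and 73 and 234 when scaled to spike-in controls. At a 2-fold limit, 286 genes were higher (6.91%) and 459 were lower (11.1%). Values below the floor, the level that nearly all olfactory and vomeronasal receptor probe sets stayed under, were raised to it before a ratio was taken, so a ratio against such a value is a lower bound and is written "at least". Each lineage has 1 array with no replicate, so no difference given here has a replicate check, a p-value or an error. That number of arrays, and not the depth of a library, limits the precision.

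All 3 samples were collected from mouse stomach by laser-capture microdissection, in which single cells are lifted from a stained section under a microscope, here with a spot 7.5 µm wide. Genotype, strain, age and treatment were not given in the sources used here. Parietal cells were taken from the pit zone, recognised by the lectin DBA and their own fluorescence. Pit cells stained for E-cadherin but not DBA, and only the uppermost 2 to 3 cells of the same units, short of the surface itself, were used. Zymogenic cells were taken from the base of units in the corpus as cells stained for E-cadherin but for neither DBA nor the neck-cell lectin GSII, after basal parietal cells had been removed. They were therefore defined partly by what did not stain, and they came from other slides than the parietal and pit cells. They also came from the base of the units, whereas both other lineages were taken from higher up. Neither slide nor position in the unit can therefore be told apart from lineage. For each lineage, RNA from 3000 to 5000 cells of 4 to 5 mice was pooled to 20 ng, amplified and hybridised to an Affymetrix Mouse Genome 430 2.0 array. The sample labels call the molecule nuclear RNA, whereas the design text speaks of total RNA.

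The arrays differed in ways that touch every ratio below. The median intensity over all probe sets was 4.50 for parietal, 4.81 for zymogenic and 4.64 for pit cells, and 2809, 2285 and 2616 genes were above the floor. The spike-in control transcripts BioB and BioC had a geometric mean of 299.8 for parietal cells, 700.3 for zymogenic and 700.6 for pit cells. Over the 4138 genes, the median log2 difference of the zymogenic value from the mean of the other log2 values was -0.17 as deposited, -0.048 after quantile normalization, -0.029 when each array was brought to 1 common median and -0.38 with scaling to BioB and BioC. Different probe sets of 1 gene gave log2 ratios that scattered with an SD of 0.51 over 456 combinations of gene and array pair, and this scatter is the only measure of error within the arrays.

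Chief cells are a classic model of regulated secretion. They make pepsinogens, the inactive precursors of gastric proteases, and in the mouse also intrinsic factor, and hold them in large apical granules packed by an extensive rough endoplasmic reticulum. The transcription factor MIST1 (Bhlha15) drives the build-up of this secretory apparatus as cells mature from mucous neck cells, and XBP1, a regulator of the unfolded protein response, is needed for it.

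The identity of the sample was checked first. All 4 zymogenic markers were above the floor and passed the 4-fold limit. Pgc, which encodes pepsinogen C, read 217 for parietal, 4593 for zymogenic and 9.88 for pit cells, a ratio of 21.1-fold to the higher of the others. Cblif, intrinsic factor, which binds vitamin B12 for uptake, read 2.62 for parietal, 558 for zymogenic and 3.18 for pit cells, at least 24-fold higher. Chia1, an acid-stable chitinase of the stomach, read 232 for parietal, 9916 for zymogenic and 33.9 for pit cells, 42.8-fold higher. Bhlha15 read 2.49 for parietal, 109 for zymogenic and 0.525 for pit cells, at least 4.68-fold higher, and its further probe set stayed under the floor on every array. In each of these genes the zymogenic value lay above the others, and the parietal array was the next highest for Pgc and Chia1. These 4 genes are the markers by which the lineage was checked, so their direction was known beforehand.

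Markers of the neighbouring lineages were not uniformly absent. The pit markers, of which 13 of 14 were above the floor somewhere, summed to 287 for zymogenic, 23192 for parietal and 17074 for pit cells. Their sum was thus larger on the parietal array than on the pit array itself. Of the 13, 9 were at least 2-fold lower in zymogenic cells (69.2%) with none higher, beside 11.1% and 6.91% of all genes. The parietal markers, of which 8 of 14 were above the floor, summed to 1342 for zymogenic, 5812 for parietal and 421 for pit cells. On the zymogenic array itself 5 of them passed the floor. By the 2-fold limit 1 of the 8 was higher in zymogenic cells, Kcnq1 (12.5%), and 1 was lower, Car2 (12.5%), beside the same 6.91% and 11.1%. Kcnq1 read 29.1 for parietal, 60.5 for zymogenic and 3.71 for pit cells. Slc4a2 read 48.6, 54.4 and 13.4 in the same order, and Clic6 read 232, 109 and 10.6. The proton pump's catalytic subunit, Atp4a, read 214 for parietal, 261 for zymogenic and 12.5 for pit cells, so zymogenic and parietal values lay close together. Atp4b, the pump's other subunit, read 4402 for parietal, 793 for zymogenic and 102 for pit cells, and Car2, a carbonic anhydrase of parietal cells, read 15 for zymogenic against 731 for parietal and 209.8 for pit cells. Tff2, a peptide of mucous neck cells, read 21.9 for zymogenic cells, under the floor, against 402 for parietal and 110.4 for pit cells. No member of the lists for endothelial cells, T cells, erythroid cells, or nerve and glia passed the floor on any array, and none of the smooth muscle (3 of 10 above the floor), fibroblast (6 of 10) or cycling (1 of 12) lists was 2-fold higher or lower. The part that parietal RNA plays in the zymogenic values was not tested.

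**Figure D1:**
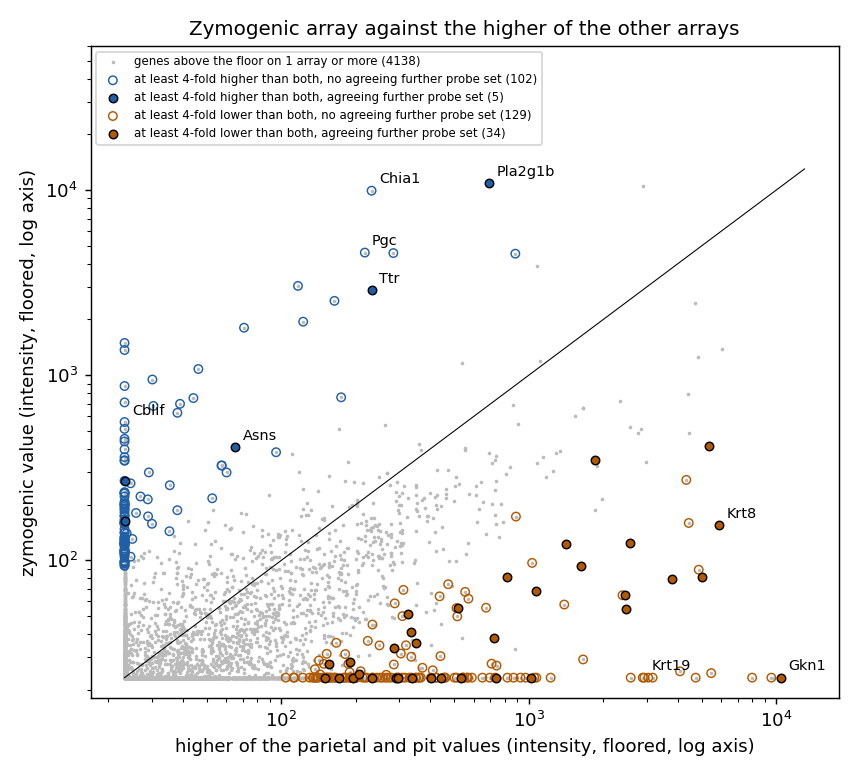
Zymogenic intensity (vertical, log axis) against the higher of the parietal and pit intensities (horizontal, log axis), 1 point per gene, with values under 23.3 raised to it and a line where both are equal. Blue circles are the 107 genes at least 4-fold higher and brown circles the 163 at least 4-fold lower in zymogenic cells, filled where a further probe set bore out the ratio (5 and 34 genes); points stacked at the left and bottom edges are at the floor.

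Because the array has several probe sets for many genes, each gene was also read through the probe sets other than its brightest. Only 22 of the 107 higher genes had another probe set that passed the floor, and in 5 of the 22 (22.7%) such a probe set also gave a ratio of at least 2-fold over both other arrays. Over all 736 genes with another probe set that passed it, 30 (4.08%) had at least 1 that was 2-fold higher by the same rule. The 736 were taken whatever the ratio of their chosen probe set. The 22, like the lower genes below, had been picked by that ratio on the same arrays, so these shares are not like for like. In 17 of the 22 no further probe set reached that limit, although in 7 of the 17 (Ero1b, Camk2a, Timp2, Ergic1, Hdac11, Herpud1 and Tmem64) every further probe set above the floor was still highest on the zymogenic array. The remaining 85 higher genes rest on 1 probe set, 60 because their further probe sets were under the floor and 25 because the array has no other. Among the 163 lower genes, 53 had another such probe set, and 34 of the 53 (64.2%) had at least 1 that was 2-fold lower, against 77 of the 736 genes (10.5%). In 17 of the 19 lower genes without such a probe set, the zymogenic value was still the lowest of the 3 in all their further probe sets that passed the floor. The other 110 lower genes rest on 1 probe set. In 71 of the 107 higher genes both other arrays were at or under the floor, and in 99 of the 163 lower genes the zymogenic array was.

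**Figure D2:**
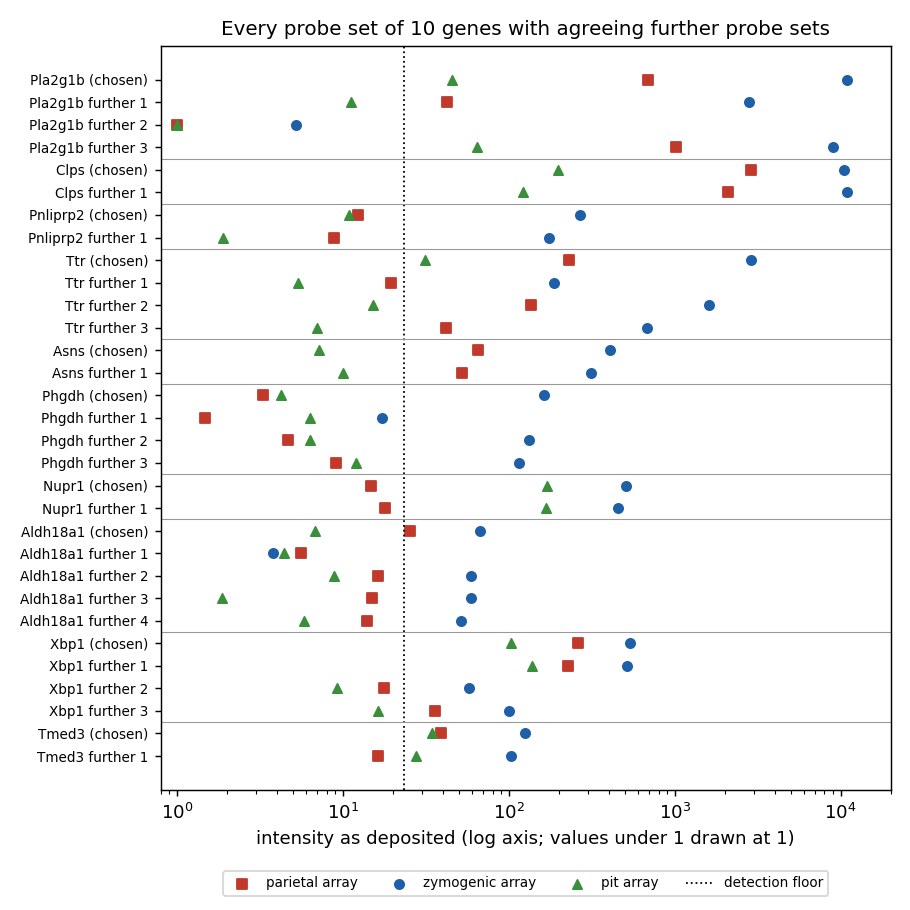
Intensity as deposited (horizontal, log axis) on each array for every probe set of 10 genes higher in zymogenic cells, the chosen probe set first, with the floor of 23.3 dotted. The 5 genes at least 4-fold higher are shown with Clps, Nupr1, Aldh18a1, Xbp1 and Tmed3, picked from the genes at least 2-fold higher, and the zymogenic point is the rightmost in every probe set that reaches the floor.

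The 5 higher genes whose further probe sets bore out the ratio fell into digestive lipid hydrolysis, plasma transport and amino acid synthesis. The chosen probe sets of all 5 carry the suffix _x_at and are not of the transcript-specific kind. With transcript-specific probe sets alone, 0 higher genes were borne out. Pla2g1b, the secreted pancreatic-type phospholipase A2, read 692 for parietal, 10938 for zymogenic and 45.8 for pit cells, 15.8-fold higher than the next. Its further probe sets above the floor read 1022, 9029 and 64.8, and 42.4, 2801 and 11.2, in the order parietal, zymogenic, pit, which is the order of every set of 3 intensities below. Pnliprp2, a pancreatic lipase-related enzyme that splits galactolipids and triglycerides, read 12.3, 269.6 and 10.9, at least 11.6-fold higher, and its further probe set read 8.89, 175 and 1.89. Ttr, transthyretin, a carrier of thyroxine and retinol-binding protein in plasma, read 232, 2889 and 31.1, 12.4-fold higher, and its 3 further probe sets read 136, 1610.3 and 15.2, then 41.9, 683 and 6.98, and 19.4, 188 and 5.37. All 4 probe sets of Ttr thus ranked the arrays alike, with zymogenic first, parietal next and pit last. Asns, asparagine synthetase, read 65.2, 409.7 and 7.17, 6.29-fold higher, with 51.9, 315 and 10.04 on its further probe set. Phgdh, which catalyses the first step of serine synthesis from glycolysis, read 3.3, 163 and 4.25, at least 7.03-fold higher, and its further probe sets above the floor read 4.69, 132 and 6.32, and 9.13, 115 and 11.9. The last of these genes had no value above the floor on either other array in any probe set.

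Of the 25 function lists, that of pancreatic-type digestive genes had the highest share of genes higher in zymogenic cells. Of 21 on the array, 7 were above the floor somewhere. Of those, 4 were at least 2-fold higher in zymogenic cells and none lower, against 6.91% and 11.1% of all genes above the floor. All 7 passed the floor in zymogenic cells, but only 4 did in parietal cells and 4 in pit cells. Pnliprp1 and Pnliprp2, both among the higher genes, passed it in zymogenic cells alone and could not have been counted as lower. The floor thus partly set the share, so neither the share nor its rank is a test of direction. The median log2 difference of the 7 genes from the mean of the other arrays was 2.45, beside -0.17 for all genes. It was 2.73 after quantile normalization, 2.45 at 1 common median and -0.053 under BioB and BioC scaling. Clps, colipase, which anchors pancreatic lipase to fat droplets, read 2889, 10450.5 and 199, 3.62-fold higher, and 2103, 10912 and 121 on its further probe set. Colipase was thus well above the floor on all 3 arrays, with parietal next to zymogenic and pit last. Pnliprp1, a lipase-related protein with little known activity, read 3.2, 127 and 3.27, at least 5.47-fold higher on its 1 probe set above the floor. The proteases did not share this pattern: Prss2, a trypsinogen, read 104, 94.2 and 184, and Ctrb1, a chymotrypsinogen, read 31.7, 23.4 and 47.1, both highest on the pit array. Of the 24 markers of pancreatic acinar cells, 16 were under the floor on all 3 arrays, among them the carboxypeptidases Cpa1 and Cpb1, the elastases Cela1, Cela2a and Cela3b, and the acinar regulators Ptf1a and Nr5a2. Rbpjl, the acinar partner of PTF1A, read 1.46, 80.5 and 1.53, at least 3.46-fold higher.

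Among the gastric lumen proteins, 3 of 7 above the floor (Pgc, Cblif and Chia1) were at least 2-fold higher and 1 was lower. The shares over all genes were 6.91% and 11.1%. The lower gene was Ctse, cathepsin E, an aspartic protease made by many gastric epithelial cells, which read 2391, 64.8 and 2105. Pga5, which encodes a pepsinogen A, read 47.6, 30.9 and 12.7, with the parietal value above the zymogenic value. The median log2 difference of the group was -0.055 as deposited, but 2.65 after quantile normalization, 2.40 at 1 common median and -0.58 under BioB and BioC scaling, so its sign rested on how the arrays were scaled.

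The stretches just upstream of the transcription start are shown for Pgc and Chia1, as digestive-enzyme genes with the largest measured ratios, because both hold a TATA box, and for Asns and Ero1b, because each holds the element of the stress pathway its product belongs to. Each is the 250 bases before the first listed start on the gene's own strand, from RefSeq on GRCm38.p6, and the capitals mark the motif. Pgc lies at chr17:47726592-47726841 on the plus strand, Chia1 at chr3:106113132-106113381 on the plus strand, Asns at chr6:7693210-7693459 on the minus strand and Ero1b at chr13:12565633-12565882 on the plus strand.
Pgc: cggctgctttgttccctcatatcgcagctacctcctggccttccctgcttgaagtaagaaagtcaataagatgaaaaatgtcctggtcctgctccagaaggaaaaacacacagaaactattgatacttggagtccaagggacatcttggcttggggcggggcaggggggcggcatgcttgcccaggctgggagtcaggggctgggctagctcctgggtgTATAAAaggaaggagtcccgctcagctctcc
Chia1: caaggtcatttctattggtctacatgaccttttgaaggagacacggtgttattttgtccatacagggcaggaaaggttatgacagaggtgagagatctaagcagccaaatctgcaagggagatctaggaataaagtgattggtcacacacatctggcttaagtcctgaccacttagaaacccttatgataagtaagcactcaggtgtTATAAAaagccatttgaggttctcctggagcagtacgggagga
Asns: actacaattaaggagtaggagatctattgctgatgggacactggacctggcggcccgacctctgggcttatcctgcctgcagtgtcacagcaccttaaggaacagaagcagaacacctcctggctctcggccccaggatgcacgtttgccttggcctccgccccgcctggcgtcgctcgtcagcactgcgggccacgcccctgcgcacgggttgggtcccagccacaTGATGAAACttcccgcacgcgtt
Ero1b: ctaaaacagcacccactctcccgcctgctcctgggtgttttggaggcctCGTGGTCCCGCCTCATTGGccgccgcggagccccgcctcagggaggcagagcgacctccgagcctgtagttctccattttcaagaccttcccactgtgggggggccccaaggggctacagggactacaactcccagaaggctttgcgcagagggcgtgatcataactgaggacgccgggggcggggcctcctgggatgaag
In Pgc the TATAAA ended 25 bases before the start and in Chia1 37 bases before it. Searched on both strands, TATAAA was present in 17 of the 92 higher genes with a promoter in the table (18.5%), in 15 of 122 lower genes (12.3%) and in 9.02% of 14453 promoters of all genes on the array. The Asns promoter holds TGATGAAAC, the nutrient-sensing element bound by ATF4, ending 14 bases before the start, and this string occurred in 19 of the 14453 promoters (0.131%). Among the 92 higher genes only Asns, shown because it holds the string, had it, and 0 of the 122 lower genes did. The Ero1b promoter holds the ER stress response element, CCAAT and CCACG with 9 bases of any kind between them, on the other strand, so it appears in reverse complement in the line above, and it occurred in 18 of the 14453 promoters (0.125%). Ero1b, likewise shown because it holds the element, was the only 1 of the 92 higher genes with it, beside 0 of the 122 lower genes. The E-box CATATG, a form bound by MIST1, was found in 1 of the 92 higher genes, Ghrl (1.09%), in 3 of 122 lower genes (2.46%) and in 1.96% of all promoters. None of the 4 strings contains another, and a match is a string of letters in this window, not a measured site.

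Asns and Phgdh belong to the genes that the transcription factor ATF4 switches on when amino acids run short or the endoplasmic reticulum is under load. Of 33 genes of serine, glycine and asparagine synthesis and other ATF4 targets, 19 were above the floor. Of these, 7 were at least 2-fold higher in zymogenic cells with none lower, beside 6.91% and 11.1% of all genes. The floor was passed by 17 of the 19 in zymogenic cells, by 9 in parietal cells and by 10 in pit cells. Phgdh, Mthfd2 and Atf5 passed it in zymogenic cells alone, so they could not have been counted as lower. The share of higher genes and the absence of lower genes were thus partly set by the floor. Nupr1, a stress-induced chromatin protein, read 14.7, 510.1 and 170.3, 2.995-fold higher, and 17.9, 454 and 167 on its further probe set. Aldh18a1, which makes the precursor of proline, read 25.5, 66.9 and 6.83, 2.63-fold higher. Mthfd2, an enzyme of mitochondrial folate metabolism, read 14.9, 46.9 and 2.56, at least 2.02-fold higher. Slc3a2, the shared heavy chain of several amino acid transporters, read 30.8, 85 and 26.6, and Atf5, a factor related to ATF4, read 10.7, 49.3 and 13.4. Those higher genes span synthesis, transport and regulation. Atf4 itself read 116, 105 and 126, with the zymogenic value lowest of the 3. The group's median log2 difference was 0.37, and it was 1.002 after quantile normalization, 1.01 at 1 common median and 0.0043 under BioB and BioC scaling. Among the aminoacyl tRNA synthetases, which load amino acids onto tRNA and include many ATF4 targets, only Eprs of 14 above the floor was 2-fold higher, at 27.5, 62.9 and 10.9. Their median was 0.73, with 1.08 after quantile normalization, 1.04 at 1 common median and -0.051 under BioB and BioC scaling.

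Some genes of the secretory machinery were higher in zymogenic cells and others lower. Of the ER chaperones and unfolded-protein-response genes, 7 of 27 above the floor were at least 2-fold higher (25.9%) and 3 were lower (11.1%), beside 6.91% and 11.1% of all genes, so the share of lower genes was that of the background. They had a median log2 difference of 0.35, and of 0.77 after quantile normalization, 0.68 at 1 common median and -0.27 under BioB and BioC scaling. Pdia2, a protein disulfide isomerase first known from pancreas, read 164, 2520.4 and 8.46, 15.4-fold higher. Ero1b, the oxidase that recharges such isomerases in professional secretory cells, read 5.01, 174 and 13.5, at least 7.5-fold higher, and 1.02, 30.4 and 0.762 on its further probe set. Herpud1, a component of ER-associated degradation, read 20.1, 116 and 10.3, at least 4.98-fold higher, with 12.1, 41.6 and 10.5 on the further one. In both genes the further probe set was highest on the zymogenic array but too close to the floor to reach a 2-fold ratio. Hyou1, an ER chaperone, read 39.8, 162 and 42, but 32.7, 22.4 and 19.2 on its further probe set, where parietal was highest. Xbp1 read 263, 539 and 103, 2.05-fold higher. The 3 lower genes were Ero1a, Agr2 and Ern2. Ero1a, the widely expressed counterpart of Ero1b, read 78.5, 5.79 and 81.3, with 41.7, 5.05 and 56.1 on its further probe set. Agr2, a disulfide isomerase needed for mucin folding, read 149, 6.49 and 55.1, and Ern2, an ER stress sensor of mucus-secreting epithelium, read 130.1, 6.78 and 106. Ero1b was thus highest and Ero1a lowest in zymogenic cells on each of their probe sets above the floor.

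For entry into the endoplasmic reticulum the share of higher genes lay near that of all genes, and for exocytosis both shares did. In the set for ER translocation and N-glycosylation, 2 of 24 genes above the floor were at least 2-fold higher (8.33%), near the 6.91% of all genes. None of the 24 was lower, beside 11.1% of all genes. The median was 0.55, with 0.90 after quantile normalization, 0.86 at 1 common median and -0.14 under BioB and BioC scaling. The higher genes were Spcs3, a signal peptidase subunit, at 27.6, 103 and 19.6, and Srpr, the receptor of the signal recognition particle, at 32.7, 70.01 and 29.9. For ER-to-Golgi vesicles, 4 of 25 were higher (16%) and 1 was lower (4%), beside the same 6.91% and 11.1%, and the median was -0.043, with 0.28 after quantile normalization, 0.22 at 1 common median and -0.44 under BioB and BioC scaling. The higher ones were Tmed6 and Tmed3, cargo receptors of the p24 family, with Copz2, a coat subunit, and Sec16a, an organiser of ER exit sites. Tmed6 read 11.3, 347 and 3.81, at least 14.9-fold higher, and Tmed3 read 39.1, 125 and 34.7, with 16.3, 103 and 27.6 on its further probe set. For regulated exocytosis, 1 of 13 was higher (7.69%) and 2 were lower (15.4%), both near the shares of all genes. Syt7, a calcium sensor of granule release, read 14.1, 92.3 and 9.34, at least 3.97-fold higher and so just outside the 4-fold limit. The lower ones were Sytl2, a granule tether, at 125, 1.68 and 161, and Stx4a, a plasma-membrane syntaxin, at 66.5, 15.3 and 65.7. Rab3d, a small GTPase of zymogen granules, read 52.1, 42.6 and 57.6, with all 3 values close.

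**Figure D3:**
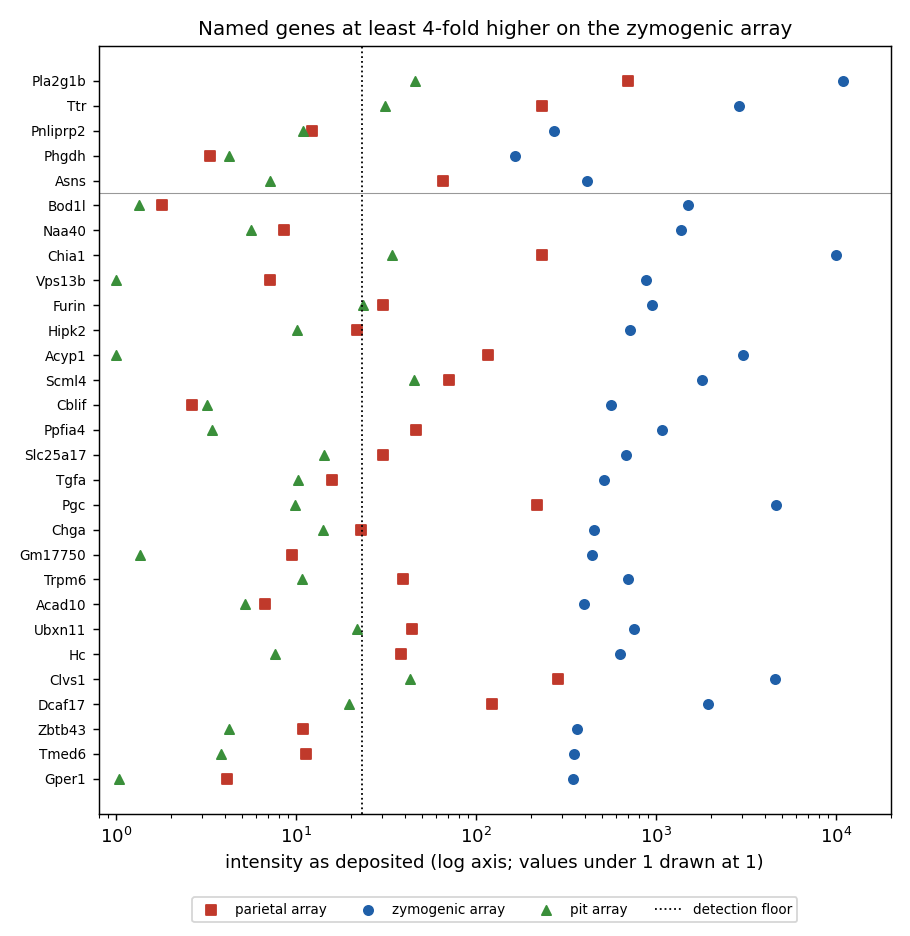
Intensity as deposited (horizontal, log axis) on the parietal, zymogenic and pit arrays for the named genes at least 4-fold higher in zymogenic cells, 1 point per array, with the floor of 23.3 dotted and the 5 genes borne out by a further probe set above the grey line. The zymogenic point is the rightmost in every row, at 10938 for Pla2g1b, 9916 for Chia1 and 4593 for Pgc, and the pit points of Pgc and Asns lie left of the floor.

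Several secreted proteins better known from plasma or from processing enzymes were also high. In the plasma protein set, 2 of 8 above the floor were at least 2-fold higher, namely Ttr and Hc, and none was lower. Over all genes 6.91% were higher and 11.1% lower. Hc, complement component C5, read 38, 627 and 7.61, 16.5-fold higher than the parietal value. The set's median log2 difference was 0.24, with 0.55 after quantile normalization, 0.57 at 1 common median and -0.42 under BioB and BioC scaling. Furin, the protease that cleaves many proproteins in the Golgi, read 30.1, 948 and 23.6, 31.4-fold higher, and it was the only 1 of 4 proprotein-processing genes above the floor to pass the 2-fold limit. Tgfa, a ligand of the EGF receptor, read 15.8, 513 and 10.2, at least 22.1-fold higher, with its further probe sets under the floor. Egfr, its receptor, read 30.2, 76 and 20.1, 2.52-fold higher on the chosen probe set, but its 2 further probe sets above the floor read 10.9, 3.003 and 27.6, and 15, 1.48 and 34.8, with the zymogenic value lowest in both. By the chosen probe sets, Tgfa and Egfr were the 2 of 4 EGF family genes above the floor that passed the 2-fold limit, beside 6.91% of all genes. Tgfa passed the floor on the zymogenic array alone.

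Several genes of gastric endocrine cells, which are scattered among the chief cells at the gland base, were also higher on the zymogenic array. Of 22 endocrine markers, 6 were above the floor somewhere, all 6 on the zymogenic array, and 4 of them were at least 2-fold higher. Over all genes the share was 6.91%. Chga, Chgb, Sst, Hdc and Pcsk1n passed the floor on the zymogenic array alone, so they could not be counted as lower. They entered the count through the array where they were high, so 4 of 6 cannot be read as a test of direction. Ghrl, the hormone ghrelin, read 7.43, 298 and 29.2, 10.2-fold higher. Chga, chromogranin A, a granule protein, read 22.7, 453 and 14.1, at least 19.5-fold higher. Chgb read 4.1, 80.3 and 15.4, and Sst, somatostatin, read 1.3, 75.9 and 1.19. The remaining 2 were Hdc, the histamine-making enzyme, at 40.4 on the zymogenic array, and Pcsk1n at 36.2. The summed level of the list was 1094 for zymogenic, 93.8 for parietal and 132 for pit cells. The other 16 genes of the list, among them Gast, Scg2, Neurod1, Tph1 and Syp, were under the floor on every array. Outside the list, Scgn, a calcium-binding protein of endocrine cells, read 0.018, 208 and 2.69, Cort, a peptide related to somatostatin, read 7.32, 157 and 7.12, and Nucb2, the precursor of nesfatin, read 16.7, 269 and 8.05; these 3 were picked after their values were seen. In pooled RNA, more cells of a type and more RNA per cell cannot be told apart, and the part of endocrine cells in the 107 genes was not tested. The lists for immune and tuft cells had no common direction. Of the 4 of 12 macrophage markers above the floor, Csf1r, a growth factor receptor, read 111, 374 and 22.4, with 8.38, 28.2 and 8.24 on its further probe set. The other 3, Adgre1 at 33.6, 5.83 and 34.1, Lyz2 at 25.1, 14.2 and 11 and C1qb at 33.8, 23.8 and 30.4, were highest in parietal or pit cells. Of 2 tuft markers above the floor, Dclk1, a kinase, read 0.016, 87.3 and 0.011 and Avil, an actin-bundling protein, 29.7, 1.66 and 88.2. Of 2 mast cell markers, Cma1, a chymase, read 3.61, 121 and 17 and Tpsb2, a tryptase, 11.2, 9.67 and 37.4. Of 7 B and plasma cell markers, only Cd79a, a B cell receptor component, passed the floor, at 0.453, 48.8 and 4.99.

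Several of the largest ratios belonged to genes outside every list and with 1 usable probe set. Besides Chia1, Furin, Pgc and Hc, the largest ratios over a measured value were those of Acyp1 (26-fold), an acylphosphatase, Scml4 (25.5-fold), a Polycomb-related protein, Ppfia4 (23.4-fold), a liprin, and Slc25a17 (22.4-fold), a peroxisomal carrier. Next came Trpm6 (18-fold), a magnesium channel, then Ubxn11 (17.1-fold), Clvs1 (16.1-fold) and Dcaf17 (15.9-fold). Among genes with both other arrays under the floor, the largest bounds were those of Bod1l (at least 64.2-fold), Naa40 (at least 58.8-fold), an N-terminal acetyltransferase, Vps13b (at least 37.6-fold), Hipk2 (at least 30.6-fold), a nuclear kinase, Cblif, Tgfa and Chga. They were followed by Gm17750 (at least 18.9-fold), Acad10 (at least 17.1-fold), Zbtb43 (at least 15.5-fold), Tmed6 and Gper1 (at least 14.8-fold), a membrane estrogen receptor. Bod1l, with the largest bound, read 1.79, 1493 and 1.34. Hipk2 read 21.7, 713 and 10.1 on the chosen probe set, but its 2 further probe sets above the floor read 30.9, 24.7 and 46.1, and 27.2, 19.5 and 62.5, with the zymogenic value the lowest in both. The genes just inside the 4-fold limit were Cep57l1 (4.05-fold), Hnrnpc (4.03-fold) and Tmem64 (4.01-fold), and those just outside were Syt7 (3.97-fold), Rab15 (3.97-fold) and Bptf (3.94-fold).

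The largest bound among the genes lower in zymogenic cells was that of a product of the mucus-secreting surface, and several other such products were lower. Gkn1, gastrokine 1, a secreted protein of the surface mucosa, read 10493 for parietal, 12.5 for zymogenic and 8307 for pit cells, at least 357-fold lower, and 4587, 1.33 and 2672 on its further probe set. Gkn2 read 7987, 8.28 and 2723, at least 117-fold lower. Of the mucosal defence genes, 6 of 9 above the floor were at least 2-fold lower and none higher, beside 11.1% and 6.91% of all genes. Their median log2 difference was -4.96. Muc5ac, the surface mucin, read 425, 14.5 and 1225, and Tff1, the trefoil peptide packed with it, read 601, 22.5 and 926. Lypd8, a secreted protein that holds bacteria off the epithelium, read 4723, 9.07 and 1049.6, at least 45.1-fold lower. Both the parietal and the pit array were high for these genes, and the zymogenic array alone was near or under the floor. Parietal and pit cells both came from the upper part of the units, so position cannot be told apart from lineage here.

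Keratins and junction proteins followed. Krt8 and Krt18 form the filaments of simple epithelia, and Krt19 joins them in many glandular cells. Krt8 read 5879, 155 and 3672, 23.7-fold lower, with 2 further probe sets 2-fold lower as well. Krt19 read 2928, 3.53 and 1322, at least 56.9-fold lower, and Krt18 read 4436, 487 and 1155, 2.37-fold lower. The list of simple-epithelial keratins (Krt7, Krt8, Krt18, Krt19, Krt20, Krt23 and Krt80) had 6 genes above the floor. Of these 3 were at least 2-fold lower and none higher, beside 11.1% and 6.91% of all genes. The median was -2.64, with -2.48 after quantile normalization, -2.41 at 1 common median and -2.96 under BioB and BioC scaling. Among keratins outside the list, Krt42 read 242, 15.1 and 359, at least 10.4-fold lower, whereas Krt4, a keratin of stratified epithelium, read 7.69, 82.5 and 8.63, at least 3.55-fold higher. Of the junction genes, 7 of 20 were lower (35%) and 1 higher (5%), beside the same shares of all genes. The median was -0.75, with -0.43 after quantile normalization, -0.58 at 1 common median and -1.27 under BioB and BioC scaling. Ctnna1, alpha-catenin, which ties cadherins to actin, read 394, 55.5 and 519, 7.1-fold lower, with 363, 53.1 and 444 on its further probe set. Cdh1, E-cadherin, read 211, 21.5 and 298, at least 9.09-fold lower on its only probe set, although the zymogenic cells had been chosen by E-cadherin staining. The gene that was higher was Cldn3, a tight-junction claudin, at 11.6, 66.1 and 8.59, with a further probe set in the same direction.

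Of the 25 function lists, that of the actin cytoskeleton had the highest share of lower genes. Of 32 actin, actin-binding and annexin genes above the floor, 26 were at least 2-fold lower and 2 were higher, against 11.1% and 6.91% of all genes. Their median was -2.59, with -2.10 after quantile normalization, -2.16 at 1 common median and -3.05 under BioB and BioC scaling. Actg1, cytoplasmic gamma actin, read 4328, 272 and 2172, and Tagln2, an actin-bundling protein, read 2469, 54.8 and 2243, 40.9-fold lower. Ezr, ezrin, which links actin to the apical membrane and shapes the parietal canaliculus, read 142, 13.2 and 171, at least 6.11-fold lower with a further probe set in the same direction. Vasp, a promoter of actin filament growth, read 31.9, 326 and 57.5, and Myl12b, a myosin light chain, read 68.9, 181 and 38.6, and these were the 2 higher genes. For Tmsb10, a thymosin that holds actin monomers, the chosen probe set read 1647, 65.4 and 2451, but of its 2 further probe sets above the floor 1 read 125, 4.73 and 274 and the other 15.3, 54.6 and 14.4, the opposite way. For Ctsb, a lysosomal protease, the chosen probe set read 257, 55.2 and 510.3 and a further one 0.165, 170.0 and 0.234, so neither gene has a settled direction.

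A number of enzymes that handle oxidants and xenobiotics were lower as well. Of 32 such genes above the floor, 15 were at least 2-fold lower (46.9%) and none higher, beside 11.1% and 6.91% of all genes. The median was -1.30, with -1.17 after quantile normalization, -1.12 at 1 common median and -1.73 under BioB and BioC scaling. Gsto1, a glutathione transferase, read 4992, 80.9 and 2119.6, 26.2-fold lower, with 4365, 50.6 and 1402 on its further probe set. Gsta4, another, read 3165, 20.003 and 908, at least 39.1-fold lower. Nqo1, a quinone reductase, read 166, 0.941 and 135, and Sod1, the cytosolic superoxide dismutase, read 1677, 346 and 1854. Outside that list, Pon2, a paraoxonase, read 3802, 79.8 and 2357, 29.5-fold lower, with 87.9, 5.71 and 109 on its further probe set. The pentose phosphate enzymes Pgd and Tkt, which supply reducing power, read 1625, 92.9 and 1370.4, and 1409.9, 122.9 and 728, 14.8-fold and 5.92-fold lower. Both had further probe sets in the same direction.

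Among the lineage transcription factors, 8 of 16 above the floor were at least 2-fold lower (50%) and 2 (Bhlha15 and Xbp1) higher (12.5%). Over all genes 11.1% were lower and 6.91% higher. The median of the list was -1.20, with -1.29 after quantile normalization, -1.16 at 1 common median and -0.94 under BioB and BioC scaling. Klf4, a factor of differentiated surface epithelium, read 194, 9.23 and 159, at least 6.82-fold lower with a further probe set in the same direction. Foxq1, a regulator of surface mucin, read 238, 6.26 and 542, and Ehf, an epithelial ETS factor, read 109, 6.34 and 264. Gata4 read 13.4, 45 and 23.9 and Hnf4a read 92.9, 25.3 and 116, so the factors were not all low together. The remaining lower genes with further probe sets in the same direction and the largest ratios were Bace2, an aspartic protease (at least 14.1-fold), Mal, a proteolipid of apical transport (at least 13.1-fold), Sptssb, a subunit of serine palmitoyltransferase (at least 12.7-fold), Fabp5, a fatty-acid-binding protein (9.11-fold), Ociad2 (at least 8.66-fold) and Jpt1 (8.03-fold). Of the lower genes without a uniform further probe set, the largest ratios beyond those given were Lyzl4 (209-fold), Olfr870 (133-fold), Cabp7 (at least 109.6-fold), Slc5a4b (at least 74.3-fold), Tmc8 (at least 70.3-fold) and Cdc26 (49.7-fold). Olfr870 is named for an olfactory receptor and was lower through high parietal and pit values. Just inside the limit lay Fuca1 (4.11-fold), Agpat2 (4.08-fold) and Abhd2 (4.06-fold), and just outside lay Gsta2 (3.998-fold), Myh9 (3.99-fold) and Tomm22 (3.95-fold).

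**Figure D4:**
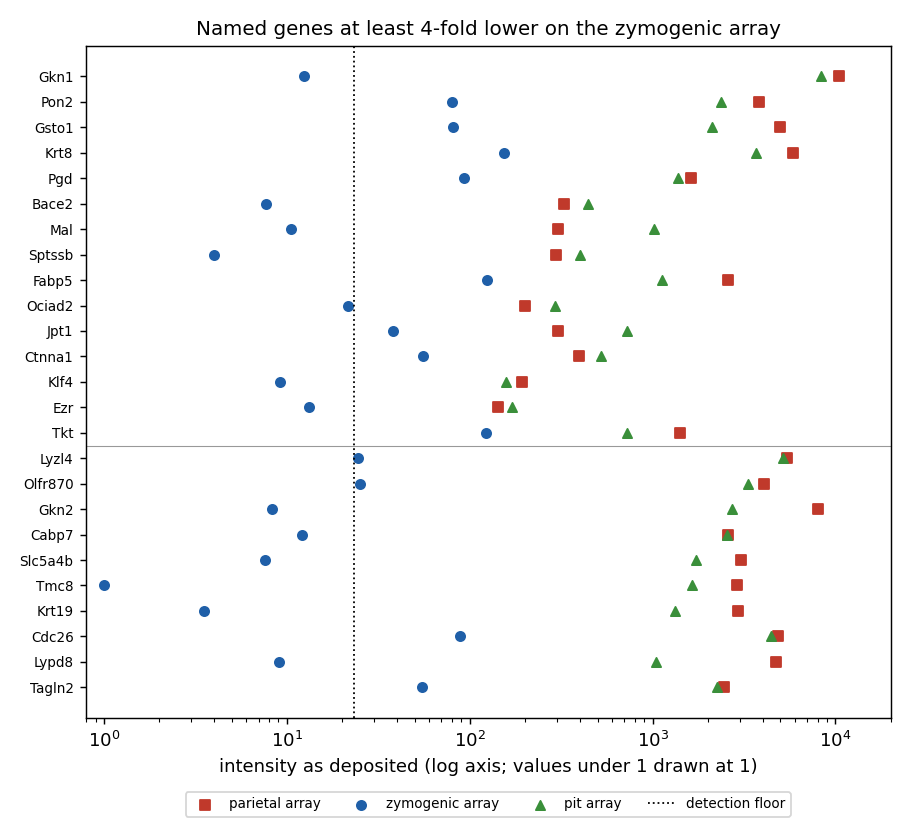
Intensity as deposited (horizontal, log axis) on the parietal, zymogenic and pit arrays for the named genes at least 4-fold lower in zymogenic cells, 1 point per array, with the floor of 23.3 dotted and genes whose further probe sets were all 2-fold lower above the grey line. The zymogenic point is the leftmost in every row, and for Gkn1 (12.5), Gkn2 (8.28) and Krt19 (3.53) it lies left of the floor.

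Of the lists for general cell machinery, those for oxidative phosphorylation, ribosomal proteins and the proteasome had smaller shares past the 2-fold limit than all genes. Among all genes, 6.91% were higher and 11.1% were lower. Of 67 oxidative phosphorylation subunits above the floor, 6 were at least 2-fold lower and none higher, and the median log2 difference was -0.38, with 0.024 after quantile normalization, -0.021 at 1 common median and -1.0 under BioB and BioC scaling. Of 34 cytosolic ribosomal proteins, 1 was lower and none higher, and the median was -0.54, with 0.20 after quantile normalization, -0.12 at 1 common median and -0.97 under BioB and BioC scaling. For the proteasome, 1 of 23 was lower (4.35%), and for lysosomal enzymes 4 of 20 were lower (20%), with none higher in either. Their medians were -0.53 and -0.24, beside -0.17 for all genes. Of the immediate early genes, which respond quickly to stimuli, 2 of 14 were lower (14.3%) and none higher, with a median of -0.59. For MHC class I presentation the median was -0.76. Of 6 genes above the floor, 1 was higher (16.7%), H2-D1 at 21.3, 141 and 6.05, and 1 was lower (16.7%), H2-K1 at 128, 22 and 70.4. These sister heavy chains, whose sequences are much alike, were on opposite sides, and their probe sets may not keep them apart. The 2 further probe sets of H2-D1 above the floor read 27, 12.6 and 15.7, and 26.4, 5.86 and 27.4, with the zymogenic value lowest in both. Of 13 citric acid cycle genes, 1 was higher (7.69%), Suclg2, a succinyl-CoA ligase subunit, at 9.06, 159.6 and 2.28. Lower were 2 (15.4%), Cs, citrate synthase, at 292, 69.3 and 311, and Mdh2, malate dehydrogenase, at 785, 161 and 378. Of 16 interferon-stimulated genes, only Oasl1 passed the 2-fold limit (6.25%), lower in zymogenic cells at 178, 1.91 and 178. The median of that list was -0.89.

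**Figure D5:**
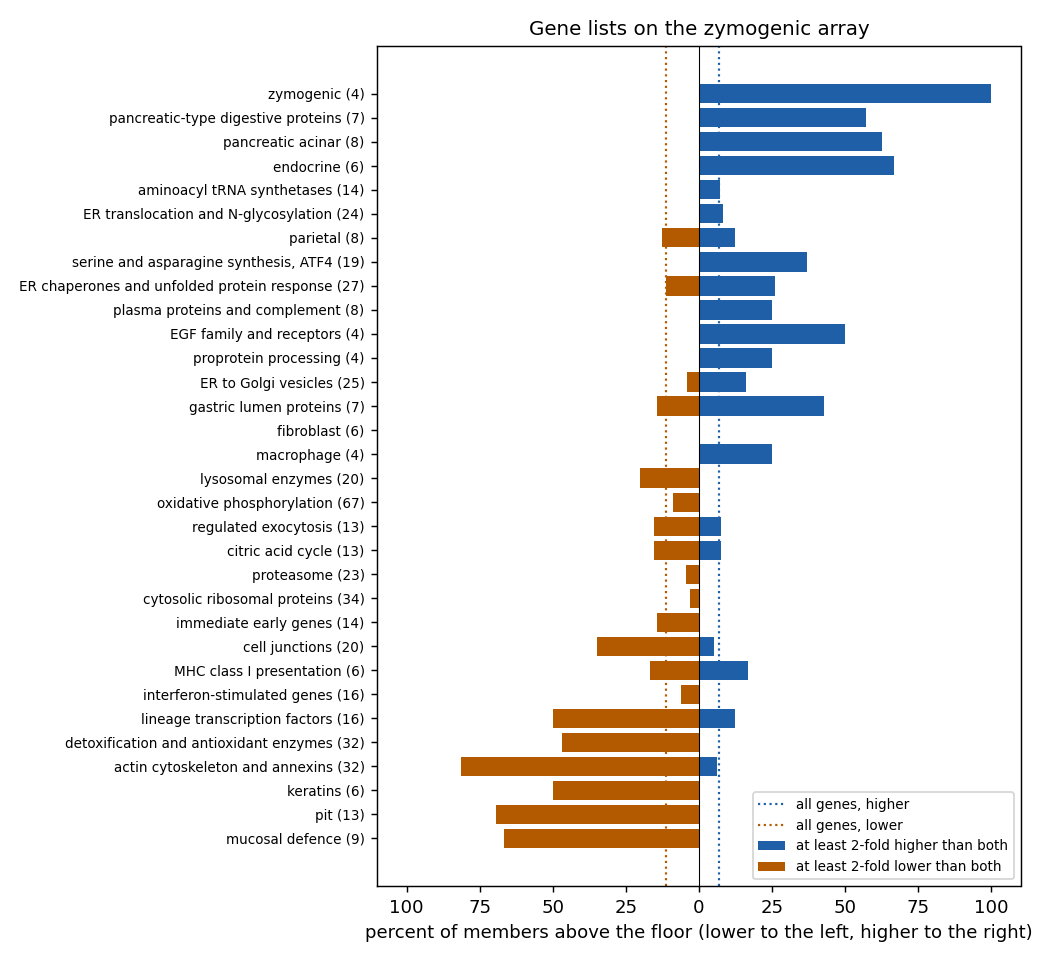
Percent of the genes above the floor (their number in brackets) in each marker or function list with at least 4 such genes that passed the 2-fold limit as higher (right) or lower (left) in zymogenic cells. Genes above the floor on the zymogenic array alone are counted in these percents. The dotted lines mark the shares over all 4138 genes, 6.91% higher and 11.1% lower, and the bars of the pancreatic-type digestive list (57.1% higher) and the actin list (81.2% lower) reach well past them.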

How the data were processed

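The authors deposited 1 intensity per probe set and array on a linear scale; the sources used here do not give summarisation, background correction or scaling, and no detection call was used. Of 45101 probe sets, 64 are array controls and 34958 name 1 gene in the platform annotation, of whose symbols 34754 matched RefSeq names (GRCm38.p6). The probe set with the highest mean over the arrays stood for a gene. Values under 23.3, the highest of the 3 arrays' 95th percentiles over 80 olfactory and vomeronasal receptor probe sets, were raised to it. No normalization was added. A further probe set bore a gene out when it was above the floor and at least 2-fold different from both other arrays in the same direction. With 1 array per lineage no test was run. Text names all higher genes so borne out, the 12 largest measured ratios, the 12 largest lower bounds, 15 and 10 lower genes by class, and members of 17 marker and 25 function lists; members and lists were chosen with earlier results of these data known. Scaling, floor, probe set choice and fold limit were varied. Scripts used Python 3.11.15, numpy 2.4.6, pandas 2.3.3 and matplotlib 3.10.9 and were tested on simulated data.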

Additional observations from a re-analysis of the deposited data

Results flagged for a closer look

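Some signal lay in probe sets that the gene-by-gene comparison does not use. Of 9160 probe sets that the annotation table does not list, 510 were above the floor on at least 1 array, and 23 of these were higher in zymogenic cells by the 4-fold rule (4.51%) while 12 were lower (2.35%). Of 932 probe sets that name several genes, 285 were above the floor, with 6 higher (2.11%) and 12 lower (4.21%). For named genes the shares were 2.59% and 3.94%. With 1 array per lineage, no sample could be set against others of its group.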

How the results depend on the processing

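Each lineage has 1 array, so leaving out a replicate was not possible, and no paired analysis was possible because the groups share only 1 replicate number. The 107 higher and 163 lower genes became 151 and 107 after quantile normalization, 128 and 96 with the arrays scaled to 1 median, and 73 and 234 with scaling to BioB and BioC. All 107 higher genes were among the 151 and the 128, and the 107 and 96 lower genes were all among the 163. A floor set by the 90th percentile of receptor probe sets gave 192 and 279 genes, and a floor of 868, their 99th percentile, gave 5 and 5. At 2-fold they were 286 and 459 and at 8-fold 45 and 60. Averaging a gene's probe sets gave 58 higher genes, and transcript-specific probe sets gave 105 lower ones. Against the parietal array alone 262 genes were lower, and against the pit array alone 291. The 5 higher genes borne out by a further probe set became 15 with quantile normalization, 10 with 1 median, 14 and 1 with the lower and higher floor, 0 with transcript-specific probe sets, 17 at 2-fold, 3 at 8-fold and 14 against the pit array alone. The 34 lower genes so borne out became 17 with quantile normalization and also 17 with 1 median, 52 with BioB and BioC, 61 and 2 with the lower and higher floor, 5 with transcript-specific probe sets, 62 at 2-fold, 16 at 8-fold, 57 against the parietal array and 63 against the pit array alone. Hipk2 turned from higher to lower with transcript-specific probe sets, at a log2 difference of -0.83, and the median of the pancreatic-type digestive list turned from 2.45 to -0.053 with scaling to BioB and BioC; the cause was not tested. Of 33 list medians, 14 changed sign under at least 1 of the 3 scalings: 5 with quantile normalization, 3 with 1 median and 9 with BioB and BioC, among them the parietal markers, tRNA synthetases, ER translocation, ER chaperones and plasma proteins. Of the other values, 318 of single genes and 242 of list medians moved by less than the 0.51 scatter between probe sets, and 185 and 56 moved by more.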

Other observations

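Between 2-fold and 4-fold, a few further genes higher in zymogenic cells were borne out by another probe set. Of 59 genes at least 2-fold higher that had another probe set past the floor, 17 had at least 1 that was 2-fold higher too. Igf1r, the receptor of insulin-like growth factor 1, read 25, 99.5 and 25.3 on the parietal, zymogenic and pit arrays. Hdlbp, an RNA-binding protein, read 118, 299 and 95.9, and Dnm2, a dynamin that pinches off vesicles, read 35.6, 116 and 57. Among genes lower by the same rule, Dbi, an acyl-CoA-binding protein, read 237, 44.6 and 173, and Aldoa, a glycolytic aldolase, read 2981, 340.0 and 950.1. A few genes with 1 usable probe set and a known home in other tissues were above the floor on the zymogenic array alone. Ins2, insulin, read 22.6, 111 and 21.1, Hoxc9, a homeobox factor of posterior body segments, read 0.107, 229 and 0.2, and Krtap12-1, a hair keratin-associated protein, read 8.75, 231 and 2.84. All genes of this paragraph were picked after their values were seen.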
